A study of Mus musculus with 8 samples.

Results

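The histone deacetylases Hdac2 to Hdac11 were followed in embryonic mouse kidneys whose ureteric bud was to lack HDAC1 and HDAC2. The 10 genes were taken whole: each non-control array probe whose RefSeq accession maps to one of them was kept, which gave 14 probes, 2 each for Hdac7, Hdac8, Hdac9 and Hdac10 and 1 for each of the other genes. They are 10 of the 17305 genes named on the array, and 14 of its 41174 probes. All 14 were well above background in both RNAs on 8 of 8 arrays. Hdac1 is not analysed here.

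Both genotypes were E13.5 kidneys of a mixed CD1 and C57BL/6 background, either wild type or mutant with both enzymes deleted in the ureteric bud, the branching epithelial tree from which collecting ducts form. The line that drives the deletion and the number of embryos per RNA are not given in the sources used here. Total RNA of whole kidneys (0.5 µg per labelling) was compared in 4 biological replicates, each with 1 RNA of either genotype, on 2 two-colour arrays per replicate, with the dyes exchanged between them by the sample labels. The series' design text instead speaks of a dye exchange on 2 of 4 arrays; the sample labels were followed, and every ratio rests on them. Whole-kidney RNA also carries the transcripts of all cells in which the genes were left intact, and in it fewer cells of a type and less RNA per cell cannot be told apart. The p-values measure the spread between these 4 replicates.

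Classical histone deacetylases remove acetyl groups from lysines of histones and other proteins with the help of a zinc ion. Class I enzymes (HDAC2, HDAC3 and HDAC8 here) are mostly nuclear, and all but HDAC8 work inside corepressor complexes. Class IIa enzymes (HDAC4, HDAC5, HDAC7 and HDAC9) have little deacetylase activity of their own, bind MEF2 transcription factors and move between nucleus and cytoplasm when phosphorylated. Class IIb holds HDAC6, a cytoplasmic tubulin deacetylase, and HDAC10, a polyamine deacetylase, and HDAC11 alone makes up class IV. HDAC1 and HDAC2 are close copies that stand in for each other in many tissues, and the question put to the other enzymes is whether their transcripts rise where both are deleted.

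No deacetylase transcript passed the test in either direction. Hdac9 came nearest on 1 of its 2 probes, 1.50-fold higher in the RNA labelled mutant and above 0 on 8 of 8 arrays, while its other probe did not follow. Hdac2, deleted in the bud by the labels, stood higher in the RNA labelled mutant in 3 replicates and lower in 1. Over the array, limma called 6 probes higher (0.0152%) and 1 lower (0.00253%), and none of the 14 was among them. At an unadjusted p under 0.05 there was 1 member probe of 14, against 6.01% of all 39521 probes tested. The adjusted p of the members in limma ran from 0.444 to 1.00. Of the 14 probes, 9 had a mean above 0, against 54.0% of all probes, and their median log2 ratio was 0.060, against 0.019 over all probes.

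The sign of every ratio follows the dye labels and may be the reverse of the one the authors used. In the authors' deposited table of 496 altered entries, 414 equal the sign-turned mean of the scanner log2 ratios within a tolerance of 0.01 and 0 equal it as labelled. Of the 309 entries with 1 probe, 309 have the opposite sign. Hdac9 is the 1 member listed: the authors' deposited table has it at -0.584 (log2), while the probe A_52_P411780 averaged 0.58 when turned by its dyes. Neither genotype is named in it as the numerator. The names "labelled mutant" and "labelled wild type" are therefore used for the RNAs, and every sign below would turn if that table has the mutant as numerator.

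The sequences upstream of Hdac2 and of the 2 start sites of Hdac9 are shown because these genes had the ratios farthest from 0 and because the 2 Hdac9 probes disagreed. They are the 250 bases before the start in the RefSeq promoter table of GRCm38.p6, which holds 12 start sites of 8 members (Hdac2, Hdac4, Hdac5, Hdac6, Hdac7, Hdac8, Hdac9 and Hdac11). Capitals mark the motifs searched on both strands, the GC box GGGCGG, the CCAAT box CCAAT and a MEF2-type sequence (CTA and TAG around any 4 bases), none of which overlap in these 3 windows. The Hdac2 window lies at chr10:36974294-36974543 on the plus strand, and the Hdac9 windows at chr12:34917096-34917345 and chr12:34528890-34529139 on the minus strand.
Hdac2: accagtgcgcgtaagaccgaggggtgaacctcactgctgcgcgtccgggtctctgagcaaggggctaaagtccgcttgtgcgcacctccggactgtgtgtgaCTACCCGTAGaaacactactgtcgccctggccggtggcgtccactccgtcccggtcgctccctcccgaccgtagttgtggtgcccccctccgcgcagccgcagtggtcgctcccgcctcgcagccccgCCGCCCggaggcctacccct
Hdac9, upstream start: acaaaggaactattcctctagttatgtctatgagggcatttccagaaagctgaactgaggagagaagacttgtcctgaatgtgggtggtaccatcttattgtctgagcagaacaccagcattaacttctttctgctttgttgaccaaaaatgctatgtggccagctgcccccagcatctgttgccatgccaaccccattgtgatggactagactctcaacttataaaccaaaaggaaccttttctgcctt
Hdac9, downstream start: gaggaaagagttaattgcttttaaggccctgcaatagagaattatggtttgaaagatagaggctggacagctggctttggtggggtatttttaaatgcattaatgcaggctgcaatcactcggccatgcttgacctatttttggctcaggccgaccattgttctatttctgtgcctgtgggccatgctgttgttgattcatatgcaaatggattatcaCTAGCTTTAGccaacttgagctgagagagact
The Hdac2 window is rich in G and C (68.8%) with 27 CpG dinucleotides, while the Hdac9 windows have 44.4% and 43.6% with 0 and 2, against medians of 52.4% and 6 over all 32851 windows. Hdac2 holds 1 GC box, found in 32.7% of all windows, and 1 MEF2-type match, found in 3.2%. The downstream Hdac9 start also holds 1 MEF2-type match, and the upstream one holds none of the 3 motifs. The middle 4 bases read CCCG in the Hdac2 match and GCTT in the Hdac9 match. Because any 4 bases were allowed there, neither match is evidence of a site that MEF2 binds. A CCAAT box, present in 33.8% of windows, is in none of the 3 shown. These matches describe letters in a window and were not linked to the array values, since the files do not say which start a probe reports.

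Hdac2, the class I enzyme of the Sin3, NuRD and CoREST corepressor complexes, had log2 ratios of 0.60, 0.60 and 0.74 in replicates 1 to 3 and -0.61 in replicate 4. Both arrays of a replicate gave the same sign, with values between -0.69 and 0.79. The RNA labelled mutant was thus the higher one in 3 pairs and the lower one in the fourth pair. The mean was 0.33 ± 0.63 (SD, n = 4), 1.26-fold, with an exact two-sided sign-flip permutation p of 0.50, where 4 replicates allow none below 0.13, and the adjusted p from limma was 0.757. Omitting replicate 4 raised the mean to 0.65, and omitting replicate 3 lowered it to 0.20.

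In log2 normalized intensity, Hdac2 stood at 11.20, 10.45, 11.23 and 10.40 in the RNAs labelled mutant of replicates 1 to 4. In the RNAs labelled wild type it stood at 10.60, 9.85, 10.49 and 11.01. The 2 sets overlap: the highest wild type value, of replicate 4, exceeds the mutant values of replicates 2 and 4. By the dye labels the RNA labelled mutant was the lower one in replicate 4 alone; with the sign of the authors' deposited table read as mutant over wild type it would be the lower one in the other 3 replicates instead. The position of the probe relative to the deleted exons is not given, and a probe outside them may not report the deletion. On the slide of replicates 1 and 2 the mean was 0.60, and on that of replicates 3 and 4 it was 0.062.

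**Figure D1:**
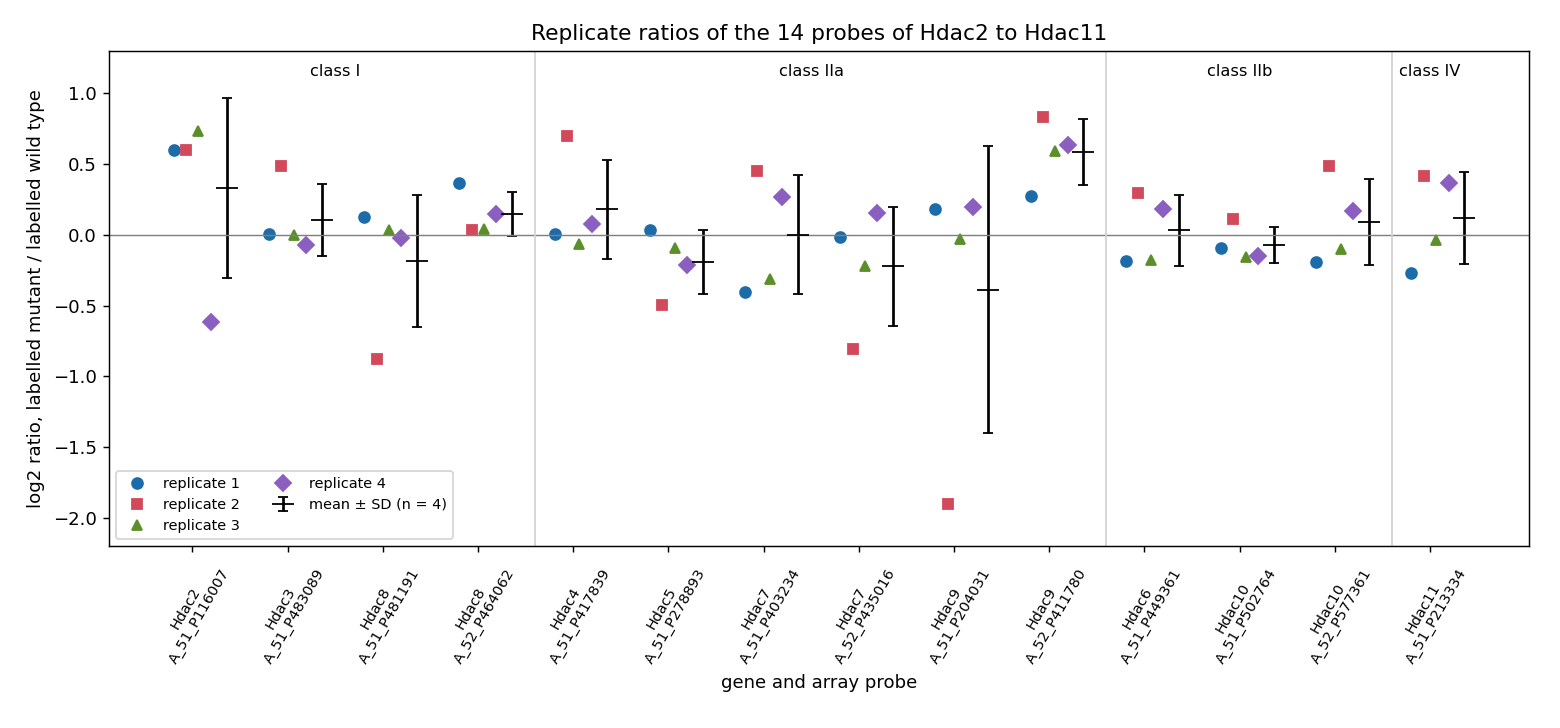
Log2 ratio (labelled mutant over labelled wild type) for each of the 14 probes (x axis, ordered by class), 1 point per replicate (the mean of its 2 dye orientations), with the mean and SD (n = 4) in black. Hdac2 shows 3 points near 0.6 to 0.7 and 1 at -0.61, the Hdac9 probe A_52_P411780 has 4 points above 0, and replicate 2 lies farthest from 0 for 11 of 14 probes.

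Hdac3, the catalytic subunit of the NCoR and SMRT complexes, had log2 ratios of 0.0070, 0.48, -0.0018 and -0.075 in replicates 1 to 4. It was level in 3 pairs and higher in the RNA labelled mutant of replicate 2. Its levels labelled mutant lay between 12.15 and 12.32 and those labelled wild type between 11.67 and 12.33, where the low value is that of replicate 2. The mean ratio was 0.10 ± 0.26 (SD, n = 4; limma adjusted p = 0.765), and it was -0.023 without replicate 2.

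Hdac8, the class I enzyme that acts on cohesin and outside the large complexes, was reported by 2 probes. Probe A_52_P464062 had log2 ratios of 0.37, 0.036, 0.042 and 0.14, above 0 in 4 of 4 replicates, as were 10.7% of all probes. Its 4 positive means rest on arrays of both signs, 5 above and 3 below 0, and the mean was -0.095 with the mutant in Cy5 and 0.39 with the mutant in Cy3. The replicate mean was 0.15 ± 0.15 (SD, n = 4; limma adjusted p = 0.757). Probe A_51_P481191 stood at 0.13, -0.88, 0.038 and -0.021. Its low value in replicate 2 came from 1 array, at -1.72, while the other orientation gave -0.035. The mean was -0.18 ± 0.47 (SD, n = 4; limma adjusted p = 0.758), and 0.047 without replicate 2. The log2 differences between the 2 probes (A_51_P481191 over A_52_P464062) were -0.24, -0.92, -0.0045 and -0.17, a mean of -0.33 ± 0.40 (SD, n = 4; exact two-sided sign-flip permutation p = 0.13), and -0.14 without replicate 2.

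Among the class IIa genes, Hdac4, a repressor of MEF2 targets best known from cartilage and muscle, had log2 ratios of 0.0075, 0.70, -0.065 and 0.080. Only replicate 2 stood away from 0, on both arrays. The mean was 0.18 ± 0.35 (SD, n = 4; limma adjusted p = 0.757), and it was 0.0075 without replicate 2. Hdac5, its close relative, stood at 0.036, -0.50, -0.094 and -0.21, with a mean of -0.19 ± 0.23 (SD, n = 4; limma adjusted p = 0.757). Hdac5 was below 0 in 3 of 4 replicates but on 4 of 8 arrays. In each of the 18 alternative settings, some of which leave the mean unchanged, Hdac5 kept a negative mean, between -0.31 and -0.071. Its levels overlapped, at 12.57 to 12.82 labelled mutant and 12.67 to 13.08 labelled wild type.

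The 2 probes of Hdac7, a class IIa enzyme known for its part in endothelium and thymocytes, did not move together. Probe A_51_P403234 had log2 ratios of -0.40, 0.45, -0.31 and 0.26, a mean of 0.00026 ± 0.42 (SD, n = 4; limma adjusted p = 1.00). Probe A_52_P435016 had -0.014, -0.81, -0.22 and 0.15, a mean of -0.22 ± 0.42 (SD, n = 4; limma adjusted p = 0.757). In replicate 2 they pointed in opposite directions, 1.26 apart on the log2 scale. Their mean difference was 0.22 ± 0.72 (first over second probe, SD, n = 4; exact two-sided sign-flip permutation p = 0.75), and -0.12 without replicate 2. Without that replicate the second probe stood at -0.027.

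Hdac9, which encodes a class IIa enzyme and a short form without the catalytic domain, held both the highest and the lowest mean among the 14 probes. Probe A_52_P411780 had log2 ratios of 0.27, 0.83, 0.59 and 0.64 in replicates 1 to 4. Every array lay above 0, from 0.18 to 1.11, as for 2.25% of all probes. Its mean was 0.58 ± 0.23 (SD, n = 4), 1.50-fold, with an exact two-sided sign-flip permutation p of 0.13, the smallest that 4 replicates allow. The unadjusted p in limma was 0.0028 and the adjusted p 0.444, so the probe was not called over all probes.

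In log2 normalized intensity this probe stood at 7.95, 7.93, 8.37 and 8.39 in the RNAs labelled mutant of replicates 1 to 4. In those labelled wild type it stood at 7.68, 7.10, 7.78 and 7.75. The 2 sets do not overlap, which held for 1 of the 14 member probes and, in this direction, for 1.41% of all probes. The means were 0.55 on the slide of replicates 1 and 2 and 0.61 on that of replicates 3 and 4. With normexp and loess in place of the scanner ratio the mean was 0.35, with an adjusted p of 0.609 in limma. Array weights, which gave replicate 2 a weight of 0.18 and replicate 3 one of 4.07, put it past the threshold (0.55, limma adjusted p = 0.0351). In that fit 1.17% of all probes were called. With all 8 arrays and the replicate block, where limma called 0.337% of all probes, its adjusted p was 0.226.

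The other Hdac9 probe, A_51_P204031, had log2 ratios of 0.19, -1.90, -0.031 and 0.19. Replicate 2 was low on both arrays, at -1.77 and -2.03, and the other pairs lay near 0. Its levels labelled mutant were 10.26, 9.97, 9.99 and 9.82. Its levels labelled wild type were 10.07, 11.87, 10.02 and 9.63, so that the RNA labelled wild type of replicate 2 alone stood apart. The mean was -0.39 ± 1.01 (SD, n = 4; limma adjusted p = 0.757), and 0.12 without replicate 2. Set against A_52_P411780, this probe was lower in 4 of 4 replicates, with log2 differences of -0.086, -2.73, -0.62 and -0.44 (mean difference -0.97 ± 1.20, SD, n = 4; exact two-sided sign-flip permutation p = 0.13, the smallest possible). The mean difference was -0.38 without replicate 2. Both probes carry the same accession, and the files do not place them within the gene.

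**Figure D2:**
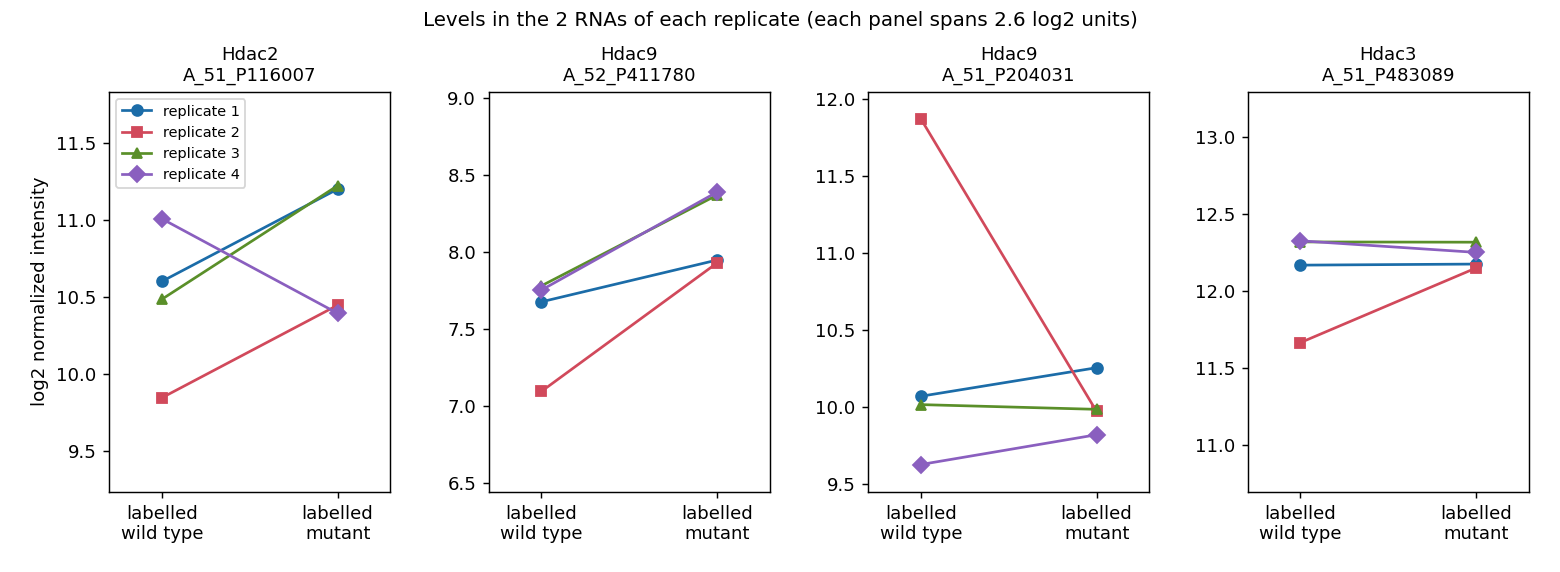
Log2 normalized intensity in the RNAs labelled wild type and labelled mutant, each line joining the 2 RNAs of a replicate, for Hdac2, both Hdac9 probes and Hdac3; each panel spans the same log2 range, and heights are not comparable between probes. The 4 lines of A_52_P411780 rise, 3 of the 4 lines of Hdac2 rise, and in the A_51_P204031 panel the wild type RNA of replicate 2 sits at 11.87, above the other 7 values.

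The means of the class IIb probes lay near 0, over replicates of both signs. Hdac6, the tubulin deacetylase, had log2 ratios of -0.18, 0.30, -0.18 and 0.19, a mean of 0.031 ± 0.25 (SD, n = 4; limma adjusted p = 0.923), with 2 pairs on either side of 0. Hdac10, the polyamine deacetylase, stood at -0.093, 0.11, -0.16 and -0.15 on probe A_51_P502764, a mean of -0.072 ± 0.13 (SD, n = 4; limma adjusted p = 0.780). This was the smallest SD of the 14 probes. On probe A_52_P577361 it stood at -0.19, 0.48, -0.098 and 0.17, a mean of 0.090 ± 0.30 (SD, n = 4; limma adjusted p = 0.801). The 2 Hdac10 probes differed by -0.16 ± 0.22 (first over second, SD, n = 4; exact two-sided sign-flip permutation p = 0.375), and by -0.093 without replicate 2, -0.25 without replicate 1.

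Hdac11, the class IV enzyme that removes long fatty acyl groups, had log2 ratios of -0.27, 0.41, -0.037 and 0.36, again with 2 pairs on either side. The mean was 0.12 ± 0.33 (SD, n = 4; limma adjusted p = 0.767). Its levels spanned 7.55 to 8.35 labelled mutant and 7.54 to 7.99 labelled wild type. In all, 2 of the 14 probes, of Hdac8 and Hdac9, had 1 sign in 4 of 4 replicates, close to the 16.4% of all probes that did. One member probe, of Hdac9, was past 1.4-fold, against 3.34% of all probes.

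**Figure D3:**
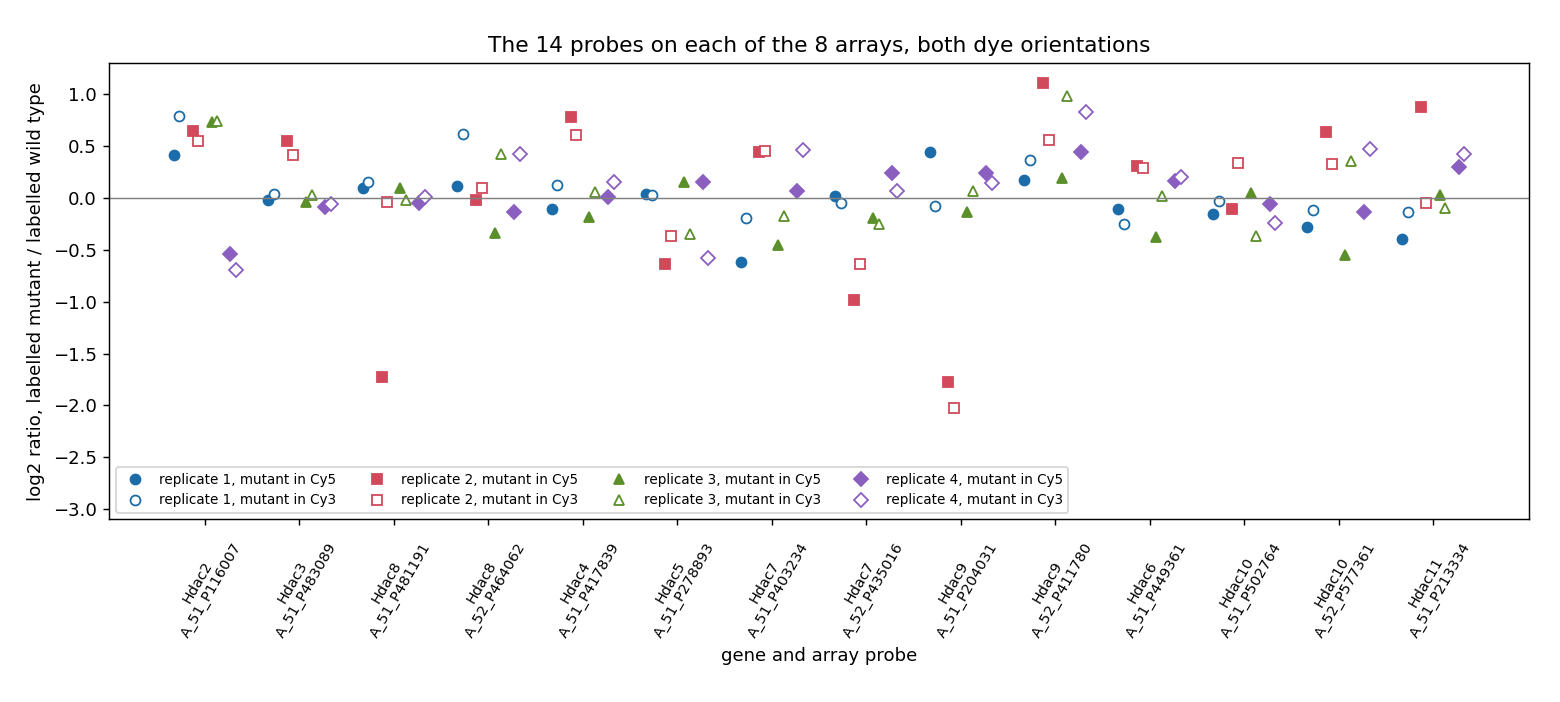
Log2 ratio of the 14 probes (x axis) on each of the 8 arrays, filled symbols with the labelled mutant in Cy5 and open symbols with it in Cy3, turned to labelled mutant over labelled wild type. The 2 orientations share their sign in every replicate for Hdac2, and lie far apart in replicate 2 for the Hdac8 probe A_51_P481191, at -1.72 and -0.035.

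Replicate 2 stood apart for the deacetylases as for the array. Its ratio was the largest in size for 11 of 14 member probes and for 64.7% of all probes, and the SD of its log2 ratios over all probes was 0.65, against 0.23 to 0.28 in the other replicates. The 4 levels labelled wild type spanned a wider range than the 4 labelled mutant for 11 of 14 member probes (68.6% of all), and replicate 2 lay farthest from the wild type median for 11 of 14 (55.9%). The share of probes well above background was 78.9% to 97.0% over arrays and RNAs, lowest for the RNA labelled wild type of replicate 2 in Cy3, and no spot was saturated. The 2 dye orientations of a replicate correlated across probes at 0.26, 0.56, 0.21 and 0.41 in replicates 1 to 4 (a description across probes). Arrays of different replicates with the same dye orientation reached similar values. They correlated at -0.19 to 0.41 with the mutant in Cy5 and at 0.039 to 0.52 with it in Cy3.

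Among genes that work with these enzymes none was called by limma. Of 36 measured subunits of class I complexes, 18 were above 0 and the other 18 below it. Their median was -0.0019 in log2 ratio, against 0.036 over 17114 named genes. At an unadjusted p under 0.05 in limma 1 of the 36 was lower, against 1.95% of named genes: Chd4, the ATPase of the NuRD complex, stood at -0.51 ± 0.45 (SD, n = 4), with its 3 probes between -0.64 and 0.043. Sap30, a Sin3 subunit, stood at 0.33 ± 0.45, with replicate ratios of 0.30, 0.89, 0.36 and -0.22; it was 0.15 without replicate 2 and 0.52 without replicate 4. Of 28 partners and regulators of class IIa enzymes, 16 were above 0 and 12 below (median 0.032, and -0.0029 without replicate 2). Of the 28, 1 was lower at an unadjusted p under 0.05 in limma, against 1.95% of named genes. Mef2c, a transcription factor that class IIa enzymes repress, stood at -0.30 ± 0.20, below 0 in 4 of 4 replicates. Ankra2, an ankyrin protein that binds these enzymes, stood at -0.23 ± 0.19 (-0.15 without replicate 2), and its other probe at -0.037.

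Of 16 histone acetyltransferases, the enzymes that add the acetyl groups, 7 were above 0 and 9 below (median log2 ratio -0.0021). The 2 of smallest p were Ncoa2, a nuclear receptor coactivator, at 0.13 ± 0.095 (SD, n = 4) and Naa60 at -0.21 ± 0.35. Without replicate 2 they stood at 0.084 and -0.034. The 3 probes of Ncoa2 lay between -0.050 and 0.13, and the 2 of Naa60 stood at -0.21 and 0.0087. The 12 proteins that read acetyl-lysine had 6 genes on either side of 0 (median -0.0059), with the remodelling ATPase Smarca4 at -0.26 ± 0.33 (-0.40 without replicate 1 and -0.14 without replicate 4). Of 6 sirtuins, the NAD-dependent deacetylases, 4 were above 0 (median 0.069), against 58.4% of named genes. Without replicate 2 the median was 0.022 for sirtuins, -0.053 for class I subunits, -0.0056 for acetyltransferases and -0.076 for readers. Sirt5, a mitochondrial desuccinylase, had log2 ratios of 0.34, 0.54, 0.36 and 0.35 (limma unadjusted p = 0.0055, adjusted p = 0.554). It was the 1 of 6 sirtuins higher at an unadjusted p under 0.05 in limma, against 4.13% of named genes. Sirt7 stood at -0.15 ± 0.12.

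**Figure D4:**
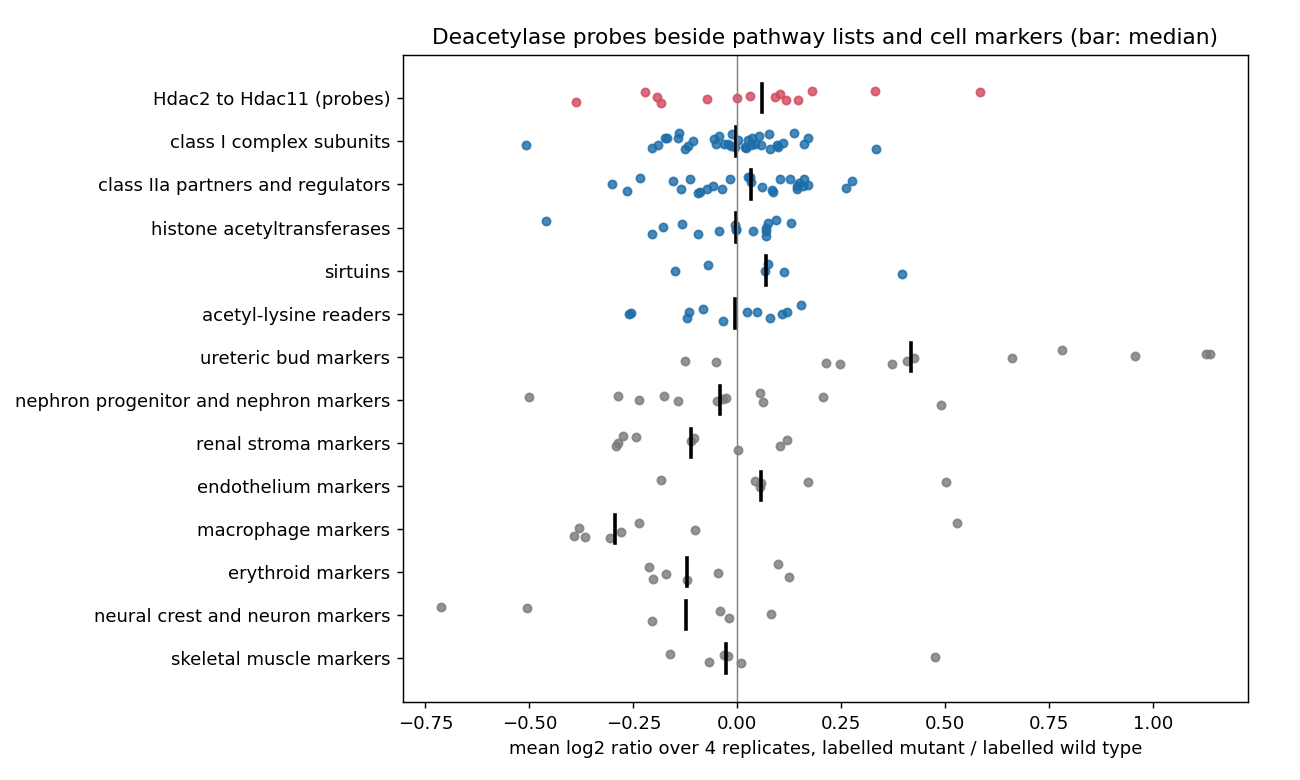
Mean log2 ratio over 4 replicates of the 14 deacetylase probes (red), of genes in 5 pathway lists (blue) and of cell type markers (grey, 1 probe per gene), with the median of each list as a bar. The deacetylase median of 0.060 lies among those of the pathway lists, between -0.0059 and 0.069, while the bud markers have a median of 0.42.

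Kidney markers were present in both RNAs, and no marker measured lacked a signal well above background on all arrays. Of the bud markers, 10 of 12 were above 0 and none was called by limma, while 8 were higher at an unadjusted p under 0.05, against 4.13% of named genes (median log2 ratio 0.42), and their summed intensity was 85108 to 101699 labelled mutant and 52576 to 60778 labelled wild type, with no overlap. Tfcp2l1, a factor of the collecting duct, had a mean of 1.13 on its brightest probe (0.21 to 1.13 over its 3 probes) and the keratin Krt18 1.14 (limma adjusted p = 0.0576 and 0.0984). Neuronal and neural crest markers were at 9862 to 11746 against 12450 to 17346 in summed intensity, again with no overlap and 5 of 6 below 0, among them Stmn2 at -0.71 and Ngfr at -0.50. Macrophage markers were at 4333 to 6038 against 5595 to 7675, with 7 of 8 below 0. Stromal markers were at 157012 to 181696 against 179306 to 210191, with 6 of 9 below 0. The macrophage and stromal sums overlapped. Of all 17114 named genes, 7127 were below 0. At an unadjusted p under 0.05 in limma, 3 macrophage, 3 stromal and 2 neuronal markers were lower, against 1.95% of named genes. In the same test 1 macrophage marker was higher, against 4.13%. By that test 1 of 12 nephron markers was higher and 1 lower, and 1 of 6 endothelial markers was higher. No erythroid or muscle marker passed it. Nephron, endothelial, erythroid and muscle markers had medians of -0.042, 0.056, -0.12 and -0.027, and their summed intensities overlapped. Without replicate 2 these medians were -0.071, 0.014, -0.13 and -0.078, and that of the neuronal markers went from -0.12 to -0.048. The part of these marker shifts in the Hdac2 and Hdac9 ratios was not tested.

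The 5 named genes whose replicate ratios lay nearest to those of Hdac2, of 17047 compared by Euclidean distance over the 4 replicates, were Glo1, Yae1d1, Gtpbp10, Snx13 and Tmem38b. Their distances were 0.32, 0.35, 0.35, 0.36 and 0.40 log2 units, against a median of 1.31 for all genes. Glo1, the glyoxalase that clears methylglyoxal, had log2 ratios of 0.76, 0.66, 0.80 and -0.34 in replicates 1 to 4. All 5 were above 0 in replicates 1 to 3 and below 0 in replicate 4. Their choice by likeness fixed this, since each distance is smaller than the size of every Hdac2 ratio. The shared signs are therefore no result.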

How the data were processed

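The arrays were two-colour Agilent 4x44K mouse arrays extracted by the authors with Feature Extraction 10.5.1.1, per the file headers. The deposited LogRatio column is a log10 value with Cy5 (red) as numerator and Cy3 (green) as denominator. The deposited intensity columns hold raw median signals and processed signals, in which Feature Extraction had already removed background and balanced the dyes. The authors' deposited table gives 1 log2 ratio per entry, chosen at p 0.05 and 1.4-fold with MeV 4.9 per its name. The deposited spot flags are 0 or 1.

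Ratios were converted to log2 and turned to labelled mutant over labelled wild type, with outlier spots left out and spots of a probe averaged. The 2 dye orientations of each replicate were averaged, so that each replicate counts once. A filter kept the 39521 of 41174 probes that were well above background (either channel) on 4 or more of the 8 arrays. The 4 replicate ratios were tested against 0 with limma 3.58.1 (lmFit and eBayes, two-sided, R 4.3.3), adjusted by Benjamini-Hochberg over all kept probes at 0.05. This step was checked on simulated data whose replicates had equal spread. The replicates here did not, so the check does not cover the wider replicate 2. Levels per RNA are log2 processed signals after Aquantile normalization. Symbols came from RefSeq (GRCm38.p6) by accession for 25097 probes, and in lists the brightest probe stood for its gene. Named genes were all member probes, the 2 of smallest p in each pathway list where none was called, up to 2 per marker list, and the 5 genes nearest to Hdac2; 1 gene that this rule names is not reported here.

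The array pairs the RNAs of a replicate: deviations of the RNAs labelled mutant and labelled wild type from their group means correlated at 0.55 to 0.78 within the 4 pairs, against at most 0.27 with another pair. Replicates 1 and 2 share a slide, as do 3 and 4. Alternatives changed the normalization (normexp with offset 50 on median signals, then loess; median centring), the filter, the block, the weights, the dye orientation and the replicates used. The members and lists were chosen with earlier results of these data known.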

Additional observations from a re-analysis of the deposited data

Results flagged for a closer look

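Of the 14 member probes, 4 had 1 replicate far from the other 3, with a gap to the nearest beyond Dixon's 95% limit for 4 values, where chance gives about 5%. Over all probes the share was 11.5%. Hdac2 was at -0.614 in replicate 4, against a mean of 0.65 in the others. Replicate 2 was the distant one for Hdac3 (0.485, against -0.023), for the Hdac8 probe A_51_P481191 (-0.88, against 0.047) and for the Hdac9 probe A_51_P204031 (-1.9, against 0.12).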

How the results depend on the processing

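No member was called under 17 of the 18 alternatives, and the Hdac9 probe A_52_P411780 was called under 1, array weights (0.55, limma adjusted p = 0.0351). Its adjusted p ranged from 0.0351 to 1.00 over the alternatives and its ratio was 0.35 to 0.69, above 0 in each. Hdac2 was also above 0 in each (0.062 to 0.65), and Hdac5 and the Hdac7 probe A_52_P435016 were below 0 in each. Several alternatives leave the mean unchanged, as given below. The count of probes called over the array was 7 and moved to 1 with normexp and loess, 2 with no filter, 13 with a strict filter, 1 with the slide as a block, 0 within slide 1 (750 at an unadjusted p under 0.05 in limma), 452 within slide 2, 462 with array weights, 133 with 8 arrays and the replicate block, 1 with the mutant in Cy5 alone and 36 with it in Cy3 alone. Leaving out 1 replicate gave 0 to 10: 0 without replicate 1, 3 or 4 (2596, 912 and 1962 at an unadjusted p under 0.05 in limma) and 10 without replicate 2. In the fit to separate channels, 7 probes were called with the replicate block and 8 with no replicate block; the block changed no member's call.

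Changing only the filter, the block, the channel fit or the outlier spots left every member mean unchanged, so no sign could turn there. The 252 member values under alternatives include those settings. Of the 252, 29 had the opposite sign to the reported mean, and the cause was not tested. With normexp and loess these were Hdac7 A_51_P403234 (-0.10), Hdac6 (-0.10), Hdac10 A_52_P577361 (-0.068) and Hdac11 (-0.017). With median centring they were Hdac7 A_51_P403234 (-0.036) and Hdac6 (-0.0059). Array weights gave Hdac8 A_51_P481191 (0.018), Hdac4 (-0.0058), Hdac7 A_51_P403234 (-0.21), Hdac6 (-0.10) and Hdac10 A_52_P577361 (-0.053). The mutant in Cy5 alone gave Hdac8 A_52_P464062 (-0.095), Hdac7 A_51_P403234 (-0.14), Hdac6 (-0.0020) and Hdac10 A_52_P577361 (-0.082), and in Cy3 alone Hdac8 A_51_P481191 (0.027). Within slide 1 it was Hdac10 A_51_P502764 (0.010), and within slide 2 Hdac3 (-0.038), Hdac8 A_51_P481191 (0.0081), Hdac7 A_51_P403234 (-0.023) and Hdac9 A_51_P204031 (0.081). Leaving out 1 replicate gave -0.023 to 0.16 for Hdac3, -0.29 to 0.047 for Hdac8 A_51_P481191, -0.15 to 0.14 for Hdac7 A_51_P403234, -0.58 to 0.12 for Hdac9 A_51_P204031, -0.058 to 0.10 for Hdac6 and -0.041 to 0.18 for Hdac10 A_52_P577361. Signals were well above background for all members on all 8 arrays. The main test rests on 4 replicates, while the fits within a slide or without a replicate rest on fewer. Their counts of called probes are therefore not like for like with the main count.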

Other observations

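The upstream windows of the other members differed in base composition. Among start sites with 1 per gene, Hdac4 had 65.2% G and C with 23 CpG, Hdac11 65.2% with 17, Hdac6 61.2% with 17 and Hdac5 60.8% with 12, while Hdac8 had 48.4% with 6. In the Hdac8 window 1 self-overlapping stretch reads CCAAT on both strands. Hdac4 and Hdac6 each held 4 GC boxes and 2 CCAAT boxes, and Hdac5 held 1 MEF2-type match. The 4 start sites of Hdac7 ranged from 56.4% to 74.0%. These are descriptions of the RefSeq windows, and the arrays did not measure start sites.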
